A study of Mus musculus with 6 samples.

Results

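The MYC and MAX network is a group of transcription factors that pair through a basic helix-loop-helix leucine zipper domain. It was examined here as 10 genes taken by symbol from a table of 53599 gene symbols: Myc, Mycn, Mycl, Max, Mxd1, Mxd3, Mxd4, Mxi1, Mnt and Mlx. All 10 were in the table and 9 passed the filter on low counts, with Mycn below it. The counts come from RNA-seq of hepatocytes isolated 4 days after mice received an adeno-associated virus (AAV8), a vector used to carry genes into liver cells.

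There were 2 groups of 3 libraries. Sox4 mice received AAV8-TBG-HA-Sox4-P2A-Cre, which encodes HA-tagged mouse SOX4 and Cre recombinase, and control mice received AAV8-TBG-Cre, called empty vector (EV). Expression from both vectors is driven by the hepatocyte promoter TBG. Per the study's methods the mice were males on a C57BL/6J background, homozygous for Rosa-LSL-Cas9-EGFP and 4 to 8 weeks old at injection, so Cre switches on Cas9 and EGFP in both groups. The labels give the genotype as WT for EV and as Sox4 for the other group. Per the study each group was 3 animals. Liberase digestion freed the hepatocytes, and a Percoll density step enriched them.

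MYC, MYCN and MYCL bind DNA as dimers with MAX at a short sequence called the E-box, CACGTG, and raise transcription of genes for growth, ribosome production and the cell cycle. The proteins of the MXD group (MXD1, MXD3, MXD4 and MXI1) and MNT compete for MAX and recruit SIN3 and histone deacetylases, which lower transcription at the same sites. MLX is the partner of MLXIP (MondoA) and MLXIPL (ChREBP), which respond to glucose, and it also pairs with some of the MXD group and with MNT. In the adult liver MYC is low at rest and is induced quickly after partial hepatectomy.

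Because network dimers read the E-box, the members' own promoters were searched for it. RefSeq promoter windows on GRCm38.p6, each with 250 bases before and 50 after the annotated start, were at hand for 9 of the 10 members, all but Myc, in 11 windows since Mxi1 has 3. The letters CACGTG, which read the same on both strands, stood in 4 of these 11 windows (36.4%), against 9.93% of 12380 windows of tested genes and 7.15% of all 32851. The 4 windows are printed below in the direction of the gene, with the E-box in capitals, because they are those in which the letters CACGTG lie beside a start of a member.
Mxd4, GRCm38.p6, chr5:34187897-34187956, minus strand: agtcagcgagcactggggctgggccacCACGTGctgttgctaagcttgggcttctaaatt
Mnt, GRCm38.p6, chr11:74830774-74830833, plus strand: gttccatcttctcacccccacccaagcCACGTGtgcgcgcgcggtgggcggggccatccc
Mlx, GRCm38.p6, chr11:101087223-101087282, plus strand: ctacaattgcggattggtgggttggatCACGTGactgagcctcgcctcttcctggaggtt
Max, GRCm38.p6, chr12:76962219-76962278, minus strand: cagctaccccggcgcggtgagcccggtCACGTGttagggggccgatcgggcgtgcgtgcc
The E-box began 219 bases before the annotated start in Mxd4, 123 bases before it in Mnt, 40 bases before it in Mlx and 3 bases before it in Max. The letters CTTTGT, a core that SOX proteins can bind, were searched on both strands and do not overlap the E-box. They were in 0 of the 11 member windows, which do not include Myc, against 14.2% of the windows of tested genes. Matches of this kind are descriptions of letters, and no binding was measured.

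The libraries held between 15090629 and 16964860 counts. Levels are given as CPM, which is counts divided by the library size after scaling with edgeR's TMM method and multiplied by 1e+06. A count of 3, used as the floor, is 0.231 CPM or less. Sox4, the delivered gene, had 3 or fewer counts in every EV library and 11816 or more in every Sox4 library, so the labels hold. Of 12691 genes tested by the edgeR quasi-likelihood test, 55.1% passed a Benjamini-Hochberg adjusted p of 0.05. Of all tested genes 29.0% were called higher in Sox4 and 26.0% were called lower. In 33.1% of tested genes every Sox4 library lay above every EV library, and in 29.9% every Sox4 library lay below. TMM scaling widened the ratio of Sox4 to EV library sizes from 1.07 to 1.48. With library size alone the median change over all genes was 0.51 on the log2 scale in place of 0.04, and 79.9% of the called genes were higher in place of 52.7%. In bulk RNA a change in the cells that make up a sample and a change in RNA per cell cannot be told apart.

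Within the network Myc and Mycl rose, as did Mxd1, Mxd3 and Mxi1 on the antagonist side. Mlx fell. Max, Mxd4 and Mnt did not pass the test. Thus 5 of the 9 tested members were called higher (55.6%) and 1 lower (11.1%), against 29.0% and 26.0% of all tested genes. The groups did not overlap in the same 6 genes. Over all tested genes 33.1% were apart with Sox4 above and 29.9% with Sox4 below. The median log2 fold change of the 9 tested members was 0.73, against 0.04 over all genes tested.

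**Figure D1:**
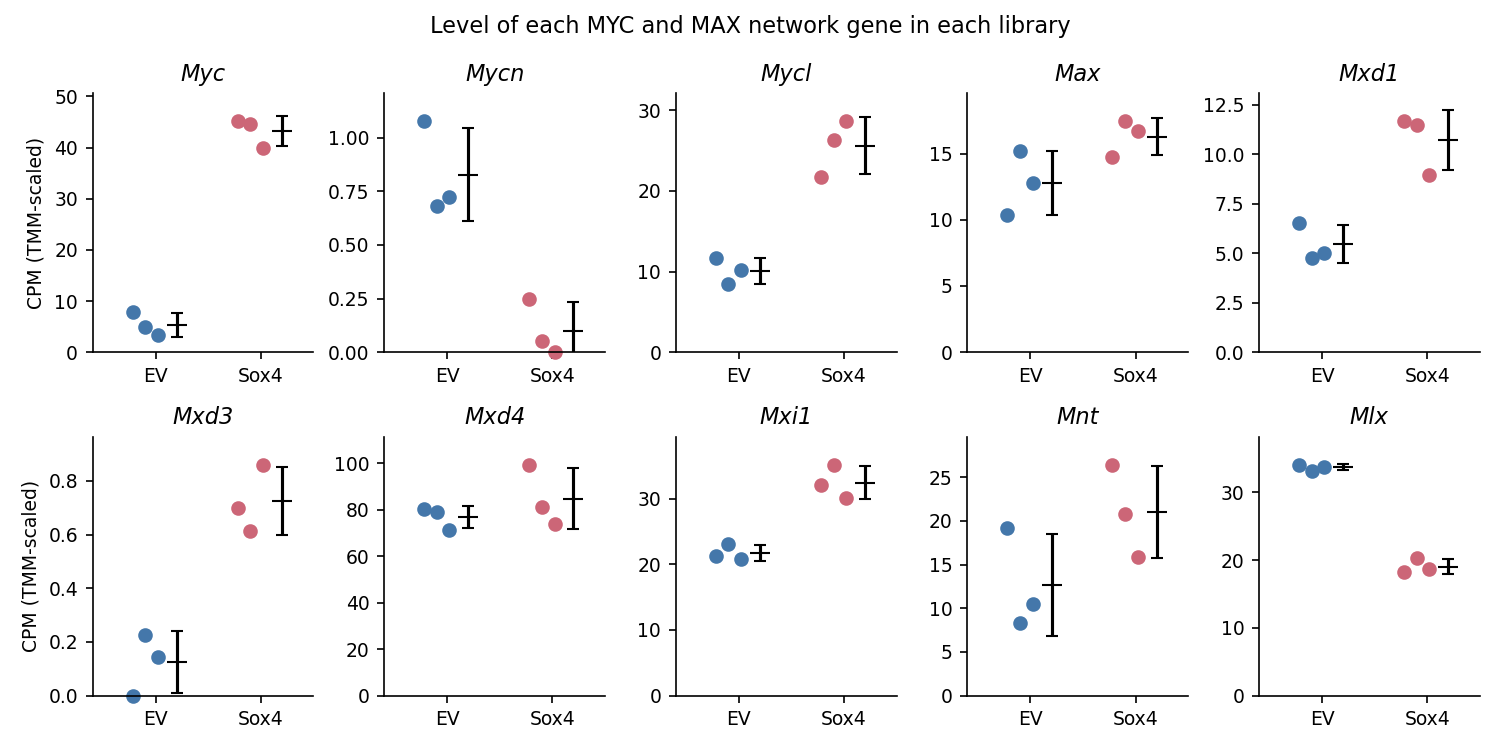
Level of each of the 10 genes in CPM on TMM-scaled library sizes (vertical axis, linear from 0, a different scale in each panel), with a point for each of 3 EV and 3 Sox4 libraries and a bar for the mean and SD. The groups are apart in Myc, Mycn, Mycl, Mxd1, Mxd3, Mxi1 and Mlx and overlap in Max, Mxd4 and Mnt.

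Myc, the founding member of the family and a driver of cell growth, was counted 103, 64 and 45 times in EV 1, EV 2 and EV 3, and 902, 876 and 788 times in Sox4 1, Sox4 2 and Sox4 3. These were levels of 7.93, 4.85 and 3.26 CPM in EV and 45.2, 44.7 and 39.9 CPM in Sox4. Every Sox4 library was far above every EV library, and the Sox4 libraries lay close together while the EV libraries spread more than 2-fold. The log2 fold change was 3.02 ± 0.37 (SE), or 8.1-fold (edgeR adjusted p = 2.03e-05).

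Mycl, a family member with a weaker transforming activity than MYC, stood at 11.6, 8.42 and 10.2 CPM in EV and at 21.7, 26.4 and 28.6 CPM in Sox4. The groups did not overlap. Its log2 fold change was 1.35 ± 0.18 (SE; edgeR adjusted p = 1.26e-04).

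Mycn, which is used mainly in embryonic and neural tissue, was near the floor and went the other way. It had 14, 9 and 10 counts in EV and 5, 1 and 0 counts in Sox4, a range of 0.682 to 1.08 CPM against 0 to 0.25 CPM. All EV libraries lay above all Sox4 libraries, but the gene did not pass the filter and carries no main test. Without the filter its fitted log2 fold change was -2.91 (edgeR adjusted p = 0.00312), a value that rests on at most 5 counts per Sox4 library.

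Max encodes the shared partner of the MYC, MXD and MNT proteins. Its levels were 10.4, 15.2 and 12.8 CPM in EV and 14.7, 17.4 and 16.7 CPM in Sox4. The groups overlapped, since Sox4 1 lay below EV 2. The log2 fold change was 0.35 ± 0.17 (SE; edgeR adjusted p = 0.103), and with library size alone it was 0.82 (adjusted p = 0.0018).

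Mxd1 (also known as Mad1), an antagonist that rises as many cell types differentiate, stood at 6.54, 4.78 and 5 CPM in EV and at 11.7, 11.5 and 8.96 CPM in Sox4. The lowest Sox4 library was above the highest EV library. The log2 fold change was 0.98 ± 0.18 (SE; edgeR adjusted p = 0.0025).

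Mxi1, another SIN3-recruiting antagonist, was the member with the narrowest spread among those that rose. It stood at 21.2, 23.1 and 20.8 CPM in EV and at 32, 35.1 and 30.1 CPM in Sox4, without overlap. The log2 fold change was 0.58 ± 0.08 (SE; edgeR adjusted p = 0.00256).

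Mxd3, the antagonist known to be expressed in dividing cells, had few counts. There were 0, 3 and 2 counts in EV, all at or under the floor, and 14, 12 and 17 counts in Sox4. The Sox4 level of 0.724 ± 0.126 CPM (SD, n = 3) was therefore at least 3.22-fold higher than EV, the bound being the mean floor of the EV libraries (edgeR adjusted p = 0.0147).

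Mxd4 and Mnt, the other antagonists, did not pass the test. Mxd4 was at 80.3, 78.9 and 71.3 CPM in EV and at 99.4, 81 and 73.8 CPM in Sox4, with Sox4 3 below EV 1 and EV 2 (log2 fold change 0.14 ± 0.14 SE, edgeR adjusted p = 0.381). With library size alone Mxd4 was called higher, at 0.61 (adjusted p = 0.0027). A p that misses the threshold does not show that the levels were equal.

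Mnt, the most widely expressed antagonist, spread widely in both groups. It was at 19.2, 8.27 and 10.4 CPM in EV and at 26.4, 20.8 and 15.8 CPM in Sox4, and EV 1 lay above Sox4 3. The log2 fold change was 0.73 ± 0.42 (SE; edgeR adjusted p = 0.0765). Without EV 1 it was 1.15 (adjusted p = 0.00366) and without Sox4 3 it was 0.90 (adjusted p = 0.0469), so the call depends on single libraries. With DESeq2, with library size alone and without the filter Mnt was also called higher (adjusted p = 0.0375, 0.0112 and 7.91e-05).

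Mlx was the member that fell. It stood at 34.1, 33.2 and 33.8 CPM in EV and at 18.3, 20.3 and 18.6 CPM in Sox4, so the libraries of each group lay close together and the groups were far apart. The log2 fold change was -0.82 ± 0.05 (SE; edgeR adjusted p = 2.21e-04). With library size alone the decrease was smaller, at -0.35 (adjusted p = 0.0212). An annotated gene on the opposite strand, Psmc3ip, overlaps 19.3% of the exon bases of Mlx, and the strand setting of the counting was not stated, so its reads cannot be told apart from those of Psmc3ip there. No annotated exon of another gene overlaps Myc, Mycn, Mycl, Max, Mxd1 or Mnt, and the overlapped share is 6.06% for Mxd4, 4.43% for Mxd3 and 2.84% for Mxi1 (GENCODE M21, GRCm38).

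The relatives outside the 10 genes moved in both directions, too. Mlxip, the MLX partner found in many tissues, rose from 4.05 ± 0.64 to 9.18 ± 2.78 CPM (SD, n = 3), which is 1.18 on the log2 scale (edgeR adjusted p = 0.00342). Mlxipl (ChREBP), the partner typical of liver, fell from 274 ± 32.3 to 116 ± 21.8 CPM, or by 1.24 on the log2 scale (adjusted p = 1.44e-04). Mlx and Mlxipl, which work as a dimer, thus both fell, while Mlxip rose. Mga, a large MAX partner that joins a Polycomb complex, rose from 24 ± 5.13 to 42.7 ± 4.8 CPM (adjusted p = 0.00187).

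**Figure D2:**
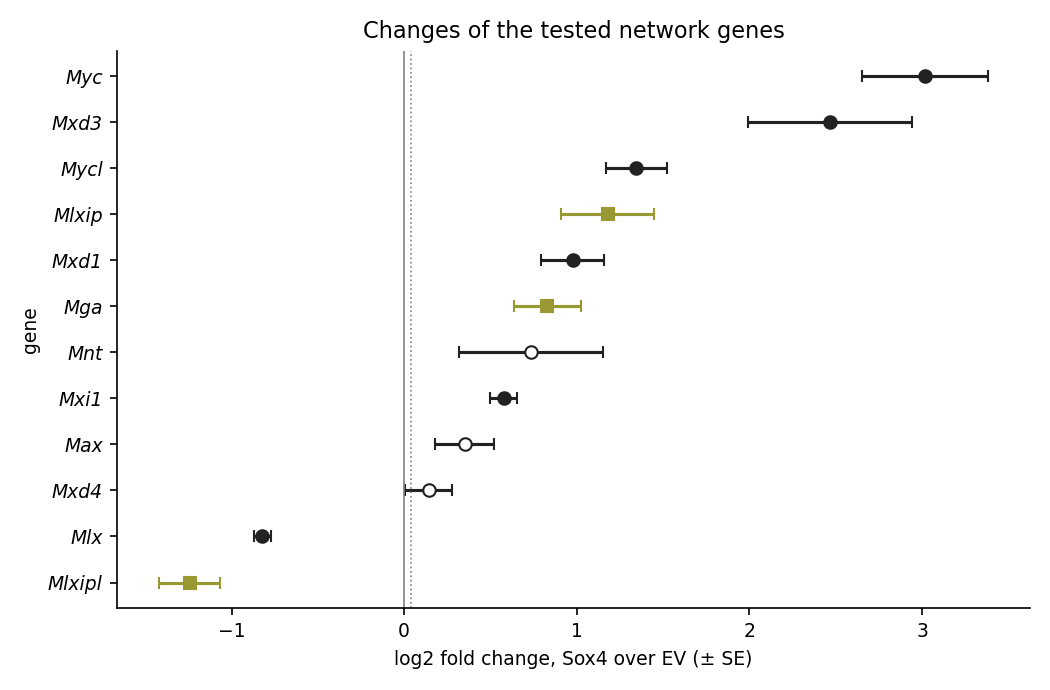
Fitted log2 fold change of Sox4 over EV (horizontal axis) for the 9 tested members (circles) and Mga, Mlxip and Mlxipl (squares). Bars show the SE of the difference between the groups' mean log2 CPM. Filled symbols passed the edgeR test, and the dotted line marks the median of all tested genes, 0.04. Myc lies farthest to the right at 3.02 and Mlxipl farthest to the left at -1.24, and the value of Mxd3 is a fitted one over EV libraries at the floor.

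To compare levels between genes, CPM was divided by the length of the exon union in kb. In EV the order by mean level per kb was Mlx (16.9), Mxd4 (9.06), Max (3.55), Mxi1 (3.18), Mnt (2.73), Mycl (2.49), Myc (1.97), Mxd1 (0.769), Mycn (0.251) and Mxd3 (0.0524). The neighbours from Max down to Myc overlapped in their ranges over libraries, while Mlx and Mxd4 stood clear at the top. In Sox4 the order was Myc (15.9), Mxd4 (9.99), Mlx (9.54), Mycl (6.33), Mxi1 (4.75), Mnt (4.54), Max (4.53), Mxd1 (1.51), Mxd3 (0.306) and Mycn (0.0305). Per kb, Myc went from the seventh level to the first and lay above Mxd4 in every Sox4 library. Mxd4 overlapped with Mlx, and Mxi1, Mnt and Max overlapped with their neighbours. The order depends on the lengths used, which were 8.483 kb for Mxd4 and 2.717 kb for Myc. In CPM not divided by length Mxd4 lay above Myc in every Sox4 library, at 73.8 to 99.4 against 39.9 to 45.2 CPM.

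The levels per kb were summed over the MYC genes (Myc, Mycn and Mycl) and over the MXD and MNT genes, as a description of mRNA and not of protein. The MYC genes summed to 6.12, 4.08 and 3.94 CPM per kb in EV 1 to 3 and to 22.1, 23 and 21.8 in Sox4 1 to 3. The MXD and MNT genes summed to 17.7, 15.2 and 14.5 CPM per kb in EV and to 24.1, 21.1 and 18.2 in Sox4. The MYC sum was 4.73 times as high in Sox4 as in EV and the MXD and MNT sum 1.34 times. With CPM not divided by length these ratios were 4.24 and 1.28.

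The MYC genes thus made up 21.1% to 25.7% of both sums in the EV libraries and 47.8% to 54.5% in the Sox4 libraries. Within the MYC genes the share of Myc was 30.5% to 47.7% in EV and 67.4% to 75.3% in Sox4. Within the MXD and MNT genes Mxd4 held 53.6% to 61% in EV and 45.3% to 48.7% in Sox4. Relative to Max, the partner that both sides need, the MYC sum was 2.12, 0.967 and 1.11 times the Max level per kb in EV and 5.4, 4.74 and 4.69 times in Sox4. None of these shares or ratios overlapped between groups, and none was tested. Their size depends on the exon union lengths used.

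**Figure D3:**
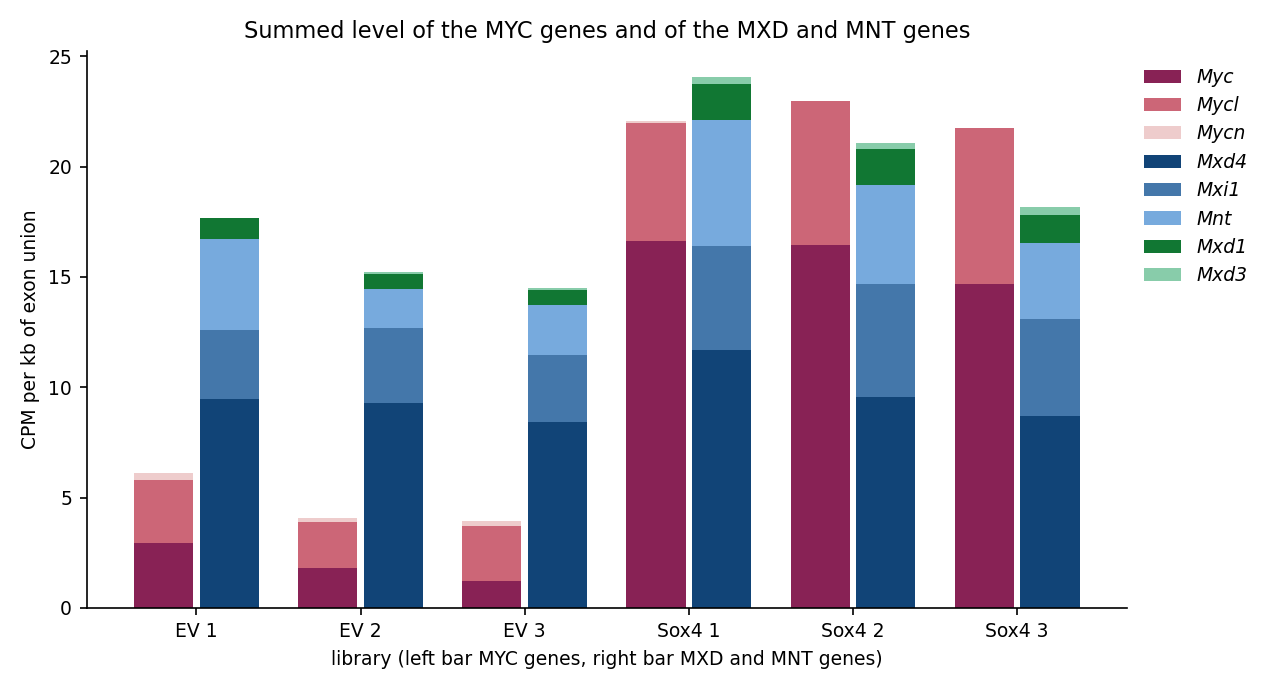
Stacked levels per kb of exon union (vertical axis, CPM per kb, from 0) in each of the 6 libraries, with the MYC genes in the left bar and the MXD and MNT genes in the right bar. In the EV libraries the right bar is much the taller, whereas in the Sox4 libraries both bars reach 18.2 or more, and most of the added height on the left is Myc.

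The genes whose pattern was most like that of Myc were found by the root mean square difference of log2 CPM over the 6 libraries, each gene being centred on its EV mean, among 9024 genes whose counts averaged 100 or more. They were Csrnp2 (0.16), Npdc1 (0.174), Id3 (0.202), Syt12 (0.245) and Plscr3 (0.246). Id3, an inhibitor of helix-loop-helix factors, went from 24.5 ± 12.8 to 173 ± 37.3 CPM (SD, n = 3). All of these genes were, like Myc, highest in EV 1 among the EV libraries, a likeness that the way of picking them favours. These genes share the 6 libraries with Myc, so the likeness is a description.

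The genes that work with the network were described next, beside 29.0% of all tested genes called higher and 26.0% called lower. The shares higher and lower were 50% and 0% for MYC coactivators and 41.7% and 16.7% for corepressors. For MYC protein turnover they were 33.3% and 6.67%. Of 16 coactivators that MYC recruits, 8 were called higher and 0 lower, with a median log2 fold change of 0.31 (without EV 2, 5 were called). Scaled by library size alone, 15 were called higher, with a median of 0.78. Among them Trrap, the scaffold of histone acetyltransferase complexes, rose from 51.8 ± 5.04 to 98.7 ± 5.53 CPM, Actl6a, a subunit shared by several chromatin complexes, rose from 15.4 ± 2.55 to 30.9 ± 2.69 CPM, and Ccnt1, the cyclin of the elongation factor P-TEFb, rose from 22.1 ± 3.42 to 43.6 ± 5.65 CPM. Of 12 corepressor genes of the MXD and MNT proteins, 5 were called higher and 2 lower, with a median of 0.09, and 1 of the lower calls was lost without EV 2, Sox4 2 or Sox4 3. Under library size alone these counts were 9 and 0, with a median of 0.56. Hdac2, a histone deacetylase, rose 4.32-fold to 110 ± 4.31 CPM, Sap30, a SIN3 complex subunit, rose 5.71-fold to 10.6 ± 1.63 CPM, and the SIN3 subunit Sap18 fell from 60.3 ± 3.34 to 40.1 ± 10 CPM. The call of Sap18 was lost with library size alone (log2 fold change -0.12, edgeR adjusted p = 0.56). Of 15 genes for MYC protein turnover, 5 were called higher and 1 lower, with a median of 0.0089 (3 higher without EV 1 or without Sox4 2, and 2 lower without Sox4 1). The count of higher genes was 10 with library size alone, with a median of 0.48. Cip2a, an inhibitor of the phosphatase PP2A that protects MYC, rose from 1.36 ± 0.5 to 10.4 ± 1.83 CPM, and Ppp2r5a, a PP2A subunit, fell from 262 ± 12.9 to 133 ± 12 CPM. The other turnover genes called higher were Fbxo32, Skp2, Aurka and Set, with log2 fold changes of 1.37, 1.28, 0.88 and 0.48. MYC protein was not measured.

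Genes known as targets of MYC did not move as one group. The shares higher and lower were 70.6% and 5.88% for cell cycle targets and 38.7% and 6.45% for nucleolar targets. Over all tested genes they were 29.0% and 26.0%. Of 17 cell cycle targets, 12 were called higher and 1 lower, with a median log2 fold change of 1.62. The lower call was lost without EV 1, Sox4 2 or Sox4 3, and there were 3 without Sox4 1. Cdk4, the kinase of the early G1 phase, rose from 23.4 ± 0.85 to 150 ± 29.9 CPM, Cdc25a, a phosphatase that activates cyclin-dependent kinases, rose from 4.27 ± 1.42 to 30.2 ± 1.38 CPM, and Mcm5, a subunit of the replicative helicase, rose from 1.22 ± 0.23 to 14.2 ± 4.14 CPM. Of 31 nucleolar targets, 12 were called higher and 2 lower, with a median of 0.28. The lower call of Dkc1 was lost without EV 2, EV 3, Sox4 1 or Sox4 2. It was also lost without the filter and with scaling by the upper quartile of counts. Scaling by library size alone gave 26 higher and 0 lower, with a median of 0.76. Nop56, a protein of the small nucleolar ribonucleoproteins, rose by 0.81 on the log2 scale, the largest increase of a called gene there with 100 or more counts on average.

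Of 26 tested targets in metabolism and translation, 7 were called higher (26.9%) and 11 lower (42.3%), against 29.0% and 26.0% of all tested genes. The median was -0.05, which was -0.14 without EV 2 and -0.19 without Sox4 1. The balance turned with library size alone, with 12 called higher, 5 lower and a median of 0.42. Odc1, the first enzyme of polyamine synthesis, rose from 93 ± 7.88 to 145 ± 15.8 CPM, and the helicase Eif4a1 rose from 281 ± 19.4 to 457 ± 28.8 CPM. Shmt2 and Mthfd1, enzymes of one-carbon metabolism, fell from 290 ± 31.4 to 108 ± 19.7 CPM and from 374 ± 38 to 163 ± 30.9 CPM. Of 8 tested genes that MYC is known to lower, 4 were called higher (50%) and 3 lower (37.5%). Cdkn1a, an inhibitor of cyclin-dependent kinases, rose from 120 ± 15.2 to 344 ± 105 CPM, and Cebpa, a transcription factor of mature hepatocytes, fell from 683 ± 143 to 271 ± 78.5 CPM. The median of these 8 genes was 0.66, with values from -1.75 to 5.21, and it was -0.15 without a filter and 1.13 with library size alone.

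Many targets of the MLX dimers were lower. Of 18 tested MONDO and ChREBP targets, 10 were called lower (55.6%) and 1 higher (5.56%), with a median log2 fold change of -0.65. Over all tested genes 26.0% were called lower and 29.0% higher. Thrsp, a lipogenic protein, fell from 294 ± 82.9 to 5.55 ± 1.87 CPM, Acacb, an acetyl-CoA carboxylase, fell from 138 ± 46.1 to 6.38 ± 2.11 CPM, and Scd1, a fatty acid desaturase, fell from 6127 ± 2124 to 391 ± 207 CPM. Fgf21, a liver hormone, was the 1 target called higher and rose from 0.385, 0.152 and 0.435 CPM to 4.91, 14 and 30.5 CPM. Its call was lost with limma-voom (adjusted p = 0.0864). Another 7 of the 18 targets were not called, and 2 of the 18 had a log2 fold change above 0. The part of Mlx, Mlxip and Mlxipl in these changes was not tested. With library size alone the median of the MONDO and ChREBP list was -0.18 and that of the cell cycle list 2.09, and the lower call of the cell cycle list was lost.

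**Figure D4:**
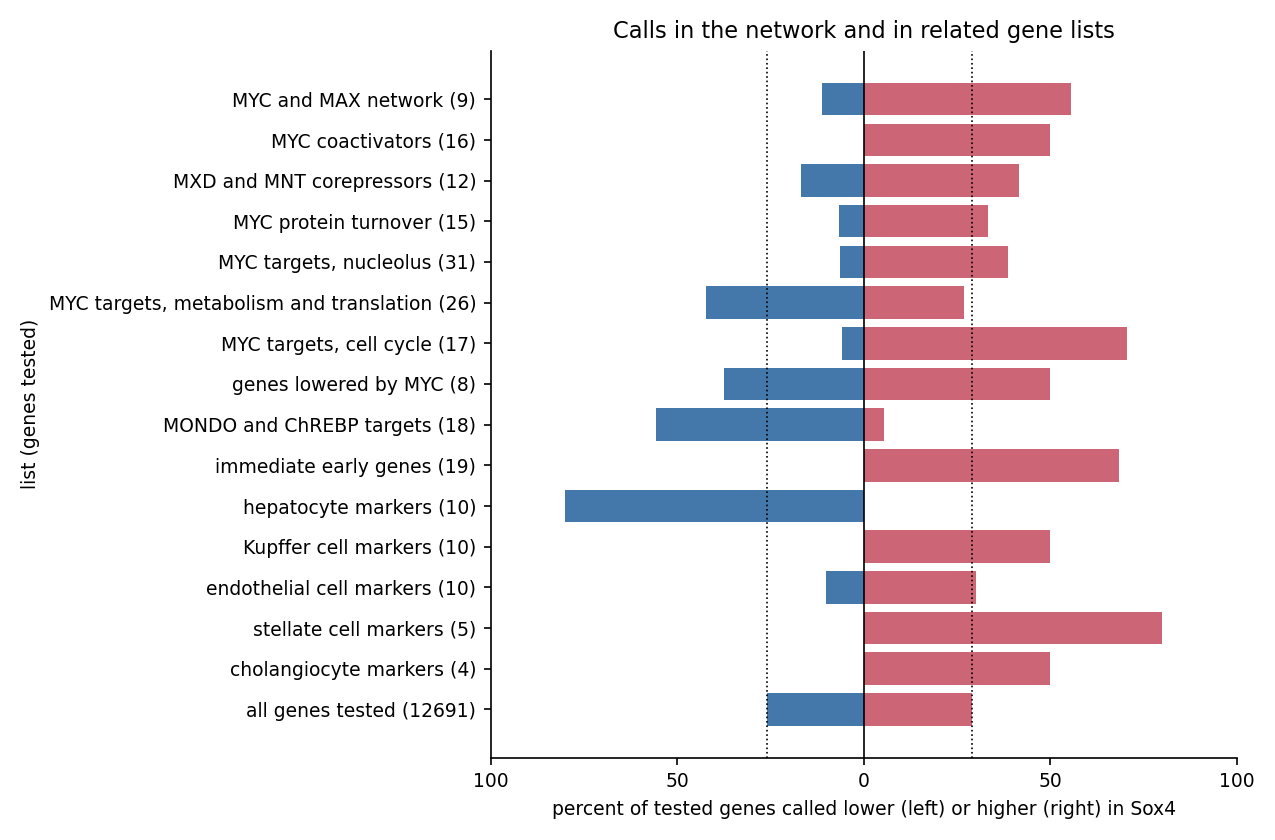
Percent of the tested genes of each list called lower (left, blue) or higher (right, red) in Sox4, with the number tested in parentheses and dotted lines at 26.0% and 29.0%, the shares over all genes. The network has 55.6% higher and 11.1% lower, the cell cycle targets 70.6% higher, and the MONDO and ChREBP targets 55.6% lower.

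Other gene groups moved with the same libraries. Immediate early genes are the class of quickly induced genes to which Myc also belongs. Of 19 tested, 13 were called higher (68.4%) and 0 lower, against 29.0% and 26.0% of all tested genes. The median of these 19 genes was 2.55, or 1.90 with genes at the floor set to their bound. Their summed level ran from 1457 to 2139 CPM over the EV libraries and from 2364 to 3877 CPM over the Sox4 libraries. Their part in the change of Myc was not tested.

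The counts of marker genes below stand beside 29.0% of all tested genes called higher and 26.0% called lower. Of 10 markers of mature hepatocytes 8 were called lower, and Apob and Ttr did not pass. Scaled by library size alone, 4 were called lower, and the median log2 fold change was -0.20 in place of -0.67. The 10 markers summed to between 129860 and 157120 CPM in the EV libraries and between 91048 and 102850 CPM in the Sox4 libraries. They were by far the most abundant marker list in both groups, which fits the labelled cell type. Of 11 listed Kupffer cell markers 10 were tested and 5 called higher (9 with library size alone). The list's sum was 13.9 to 29.2 CPM in EV against 31.1 to 72.1 CPM in Sox4. Without Sox4 1 all 11 were called higher, in a fit that tested 13074 genes in place of 12691. Stellate cell markers, with 4 of 5 tested genes higher, summed to 8.62 to 46.9 CPM in EV against 87.3 to 144 CPM in Sox4, most of it from Reln. In the main fit 5 of the 10 listed were below the filter, Hand2 being at 0 in all EV libraries. There was 1 higher call without Sox4 2, 2 without EV 2 or Sox4 3, and 7 without EV 3 or Sox4 1. More genes pass the filter with a library left out, so these counts are not out of the same 5 genes. Endothelial markers, with 3 of 10 higher and 1 lower (1 higher without EV 1, EV 3, Sox4 2 or Sox4 3, and the lower call lost without EV 2, EV 3, Sox4 1 or Sox4 2 and with library size alone), summed to 24.8 to 37.3 and 25.4 to 52 CPM. Cholangiocyte markers, with 2 of 4 tested genes higher, summed to 27.5 to 43.6 and 71.4 to 84.6 CPM, and Krt7 and Krt19 were at 0 in all EV libraries. Of lymphocyte and neutrophil markers 1 of 7 was tested and it was not called. The study reports that ectopic Sox4 induces biliary markers such as EPCAM within hepatocyte-derived cells. By its account, EPCAM protein was strong only at a later day than that of these libraries. The study did not see labelled hepatocyte-derived cells that also expressed KRT19. Which cells the cholangiocyte markers came from was not tested, nor was the part of other cell types in the changes of the network genes.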

How the data were processed

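RNA was sequenced from 3 EV and 3 Sox4 hepatocyte preparations. The authors aligned reads to GRCm39 with STAR and deposited raw counts per gene from featureCounts 2.0.1. The submitters' processing notes give STAR 2.7.10b. The gene annotation, the strandedness and the treatment of multimapping reads are not given in the sources used here. A deposited normalized table was not used, since its header is shifted against its columns. Tests used edgeR 4.0.16 in R 4.3.3 (filterByExpr, minimum count 10, minimum total 15; TMM; robust quasi-likelihood F test, no covariate), and p-values were adjusted by Benjamini-Hochberg over all 12691 genes. The code was tested on simulated data. The SE is that of the difference between the groups' mean log2 CPM (prior count 2) and not that of the fitted log2 fold change beside it. Replicate libraries differed beyond counting noise. Floors cover counting error only. The members and gene lists were chosen with earlier results of these data known. Named outside genes were Mga, Mlxip, Mlxipl, the 5 most like Myc and, per list, some of the 3 largest called changes in each direction with an average count of 100 or more and without overlap. Fbxo32, Skp2 and Aurka averaged under 100 counts, were named outside this rule and are not among the values under the alternatives. limma 3.58.1 and DESeq2 1.42.0 served as alternatives. Lengths come from GENCODE M21 (GRCm38), another build.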

Additional observations from a re-analysis of the deposited data

How the results depend on the processing

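The calls of Myc, Mycl, Mxd1, Mxd3, Mxi1 and Mlx kept their direction and stayed past the threshold in every alternative that tested them. Of 134 values of members under the alternatives 125 kept direction and call, 9 gained a call (in Max, Mxd4 or Mnt) and 0 lost one. With library size alone 8 members were called higher, with Max at 0.82, Mxd4 at 0.61 and Mnt at 1.20, and the ratio of Sox4 to EV was 6.53 for the MYC sum and 1.85 for the MXD and MNT sum. Mnt was called at 0.78 without a filter and at 0.73 with DESeq2. The correlations of deviations between same-numbered libraries were 0.273, -0.0898 and 0.131. Between libraries of different numbers they ran from -0.272 to 0.177. With 3 libraries per group these values cannot decide whether the replicate numbers pair the libraries. With the replicate block 7362 genes were called in place of 6990, Max was called at 0.36 (adjusted p = 0.0498) and Mnt at 0.78 (adjusted p = 0.00527). Without a filter 2 members were called lower, the second being Mycn. With 1 library left out, members called lower ranged from 1 to 2, Mycn passing the filter in 4 of these fits, and the log2 fold change of Mnt ranged from 0.49 to 1.15 and that of Mxd3 from 1.91 to 3.15 (3.15 without EV 2). Of 750 values of the other named genes 721 kept direction and call, 27 lost the call and 2 reversed, both with library size alone: Suds3 at 0.15 and Dkc1 at 0.026. The cause of these changes was not tested. The planned test on the deposited normalized values was not run; limma on log2 of counts over recomputed size factors, chosen after seeing the data, called 7062 genes.
Depth limits Mycn and Mxd3, whose highest counts were 14 and 17.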
